A study of Mus musculus with 12 samples.

Results

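Toll-like receptors are the sensors by which myeloid cells recognise microbial products. The 10 genes described here are 7 of the receptors (Tlr1, Tlr2, Tlr4, Tlr6, Tlr7, Tlr9 and Tlr13), the lipopolysaccharide co-receptors Cd14 and Ly96, and the adaptor Myd88. They were chosen by name, for their function, from the 23309 genes of the deposited table. Of the 10, 9 passed the filter for testing and Tlr9 did not. RNA was measured by RNA-seq in 12 libraries of mouse ER-HoxB8 myeloid progenitors. These are CD117+ bone marrow cells that carry a retroviral fusion of the estrogen receptor with HoxB8 and grow in medium with interleukin 3. Withdrawing estradiol (E2) from the medium switches the fusion off, and the cells then mature. The 6 groups, with 2 libraries each, were wild-type (WT) and HMGN1-OE cells at 0, 36 and 96 h after E2 withdrawal. HMGN1-OE cells came from mice that carry a transgene of human HMGN1, a nucleosome-binding protein, on a C57BL/6 background. WT cells came from littermates, and every group carried the ER-HoxB8 virus. The model thus describes immortalized cells that mature in culture. The study calls the 2 libraries of a group biological duplicates, without saying whether they came from separate animals or cultures. The p-values and standard errors therefore measure only the spread between these libraries, in the main fit pooled over all genes at a similar level.

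Toll-like receptors work as dimers that signal through adaptor proteins. TLR2 pairs with TLR1 or TLR6 at the cell surface to bind bacterial lipopeptides. TLR4 binds lipopolysaccharide together with the small secreted protein that Ly96 encodes, and CD14 hands lipopolysaccharide over to that complex. TLR7, TLR9 and TLR13 sit in endosomes, where they recognise single-stranded RNA, unmethylated CpG DNA and bacterial ribosomal RNA, respectively. MyD88 links all 7 of these receptors to the IRAK kinases, TRAF6 and, further down, NF-kappaB and AP-1. Mature neutrophils and monocytes carry most of these receptors.

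The expression unit is FPKM, which is per length and can therefore be compared between genes. The authors scaled the libraries to spike-in RNA added per cell number, so that a fall in total RNA per cell appears as a fall of most genes. The median tested gene was lower at 96 h than at 0 h by 1.75 on the log2 scale in WT cells and by 1.28 in HMGN1-OE cells. Levels are therefore given both as deposited and relative to the median gene of the library. In these bulk samples fewer cells of a type and less RNA per cell cannot be told apart. Library medians ranged from 3.91 to 4.97 on the log2(FPKM + 1) scale at 0 and 36 h and from 2.02 to 3.06 at 96 h. The largest gaps within a pair were those of WT cells, with medians of 3.91 and 4.78 at 0 h and 2.99 and 2.02 at 96 h. The mouse gene Hmgn1, which was not itself altered, was listed at 85.7 and 141 FPKM in WT and 201 and 97.6 FPKM in HMGN1-OE cells at 0 h. The human transgene has no row of its own, so the table does not check the genotype.

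The promoters of Tlr2 and Tlr13, the receptor genes among the 10 that rose in both genotypes and have an entry in the RefSeq promoter table, are shown beside that of Myd88, which was not called higher on the deposited scale. A promoter here is the window from 250 bases before to 50 bases after an annotated start site, on build GRCm38.p6, and 6 of the 10 genes had one. Capitals mark matches, on either strand, to the letters GAGGAA (a core of sites for PU.1, the myeloid master regulator) or TTNNGNAA (a form of the C/EBP site). The AP-1 site TGANTCA was searched too and had no match in these 3 windows.
Tlr2, chr3:83841559-83841858, minus strand: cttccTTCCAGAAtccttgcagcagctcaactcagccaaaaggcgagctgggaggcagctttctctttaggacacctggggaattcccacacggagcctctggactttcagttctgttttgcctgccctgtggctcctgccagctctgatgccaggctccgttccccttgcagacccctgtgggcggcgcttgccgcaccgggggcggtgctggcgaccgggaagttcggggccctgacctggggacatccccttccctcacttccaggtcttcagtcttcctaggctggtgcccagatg
Tlr13, chrX:106143025-106143324, plus strand: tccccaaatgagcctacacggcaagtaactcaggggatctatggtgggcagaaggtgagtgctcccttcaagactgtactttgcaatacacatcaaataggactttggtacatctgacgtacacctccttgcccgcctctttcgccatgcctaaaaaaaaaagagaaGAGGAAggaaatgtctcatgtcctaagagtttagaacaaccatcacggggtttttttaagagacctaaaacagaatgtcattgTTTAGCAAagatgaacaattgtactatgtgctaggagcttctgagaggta
Myd88, chr9:119339969-119340268, minus strand: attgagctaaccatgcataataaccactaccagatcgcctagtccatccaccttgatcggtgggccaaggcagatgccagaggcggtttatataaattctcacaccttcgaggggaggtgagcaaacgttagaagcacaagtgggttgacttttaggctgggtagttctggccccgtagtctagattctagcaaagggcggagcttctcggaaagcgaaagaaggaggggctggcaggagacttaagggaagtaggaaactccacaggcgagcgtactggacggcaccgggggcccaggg
The Tlr2 window held 1 C/EBP-type match, the Tlr13 window held 1 match of each of the first 2 kinds, and the Myd88 window held none. Among all 32851 promoter windows of this length, 28.3% held GAGGAA, 40.7% held TTNNGNAA and 7.81% held TGANTCA, so these matches are common and are given as a description only. No promoter is shown for Tlr4, Tlr7, Ly96 or Cd14.

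**Figure D1:**
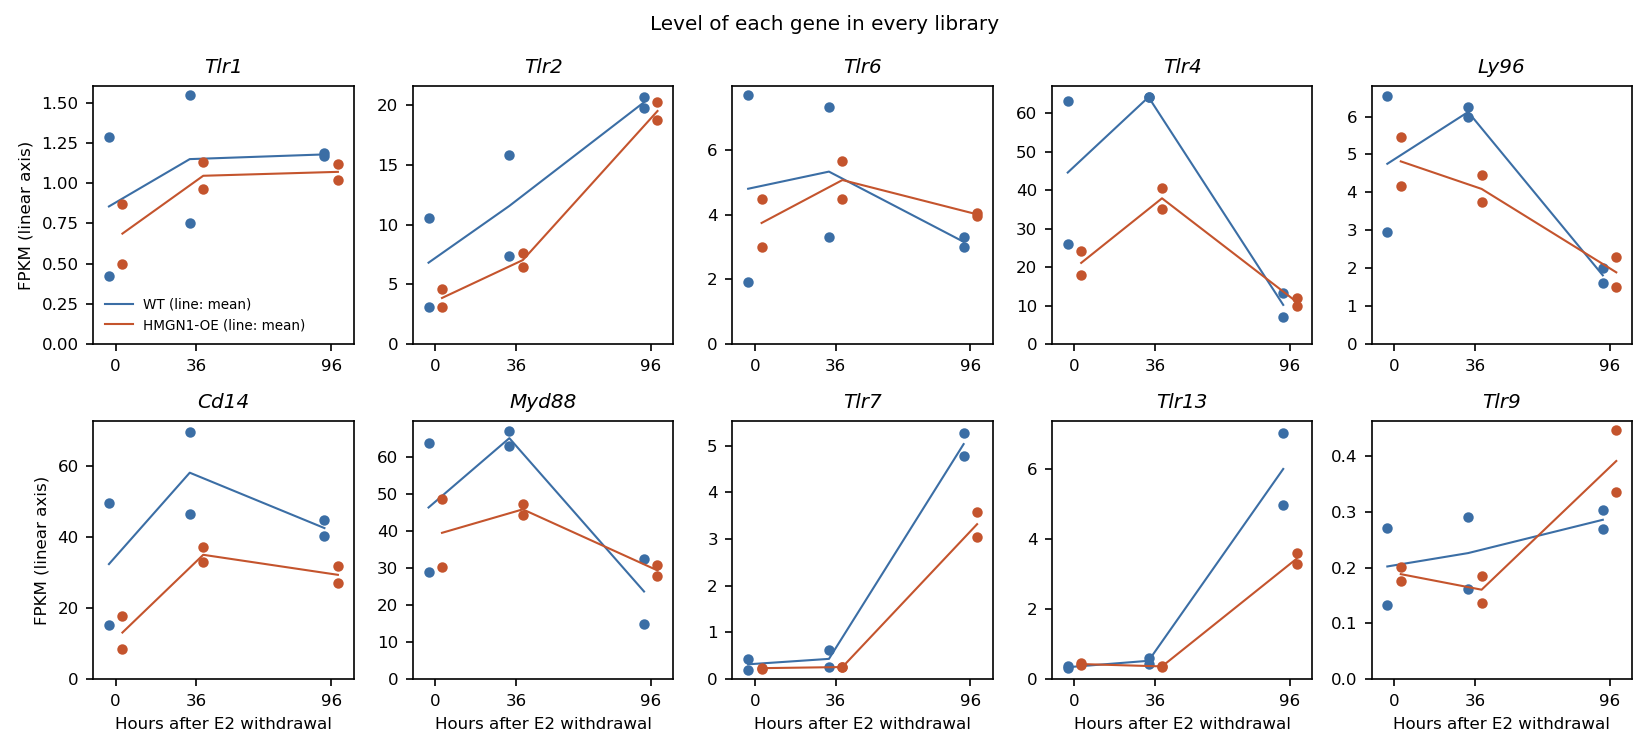
FPKM (linear axis from 0) of each of the 10 genes against hours after E2 withdrawal. Each point is 1 library, lines join the means of 2 libraries, and WT and HMGN1-OE points are set side by side. Tlr7 and Tlr13 lay under 1 FPKM in all libraries at 0 and 36 h and above 3 FPKM in all 4 libraries at 96 h, while Tlr4 was lower at 96 h than in any earlier library.

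Tlr2, Tlr7 and Tlr13 rose between 0 and 96 h in both genotypes. Tlr4 and Ly96 lay lower at 96 h than at 0 h on the deposited scale, and none of the 9 tested genes passed the test between WT and HMGN1-OE cells at any time. In WT cells 3 of the 9 tested genes were called higher at 96 h than at 0 h (Tlr2, Tlr7, Tlr13), against 4.31% of all 11516 tested genes. Of the same 9, 2 were called lower (Tlr4, Ly96), against 77.2% of all genes. In HMGN1-OE cells 4 of the 9 were called higher (Tlr2, Tlr7, Tlr13, Cd14), against 5.08% of all genes, while 1 was called lower (Ly96), against 62.4%. Calls are from limma on log2(FPKM + 1) with Benjamini-Hochberg adjustment over all tested genes, at an adjusted p under 0.05. Tlr7 and Tlr13 reached 1 FPKM in 4 libraries, all of them at 96 h. They passed the filter only through those libraries and so had to lie higher there, and nothing is read from filtered counts of genes higher at 96 h than before that include them. Without the filter all 10 genes entered the fit, beside 23309 genes in all. In WT cells 3 of the 10 were then called higher (Tlr2, Tlr7, Tlr13), against 2.72% of all genes, and 1 lower (Tlr4), against 35.6%. In HMGN1-OE cells 4 were called higher (Tlr2, Tlr7, Tlr13, Tlr9), against 2.72%, and none lower, against 24.8%. The median change of the 10 was, as log2 fold change, 0.19 in WT and 0.27 in HMGN1-OE cells, beside -0.073 and -0.035 over all genes of the table.

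**Figure D2:**
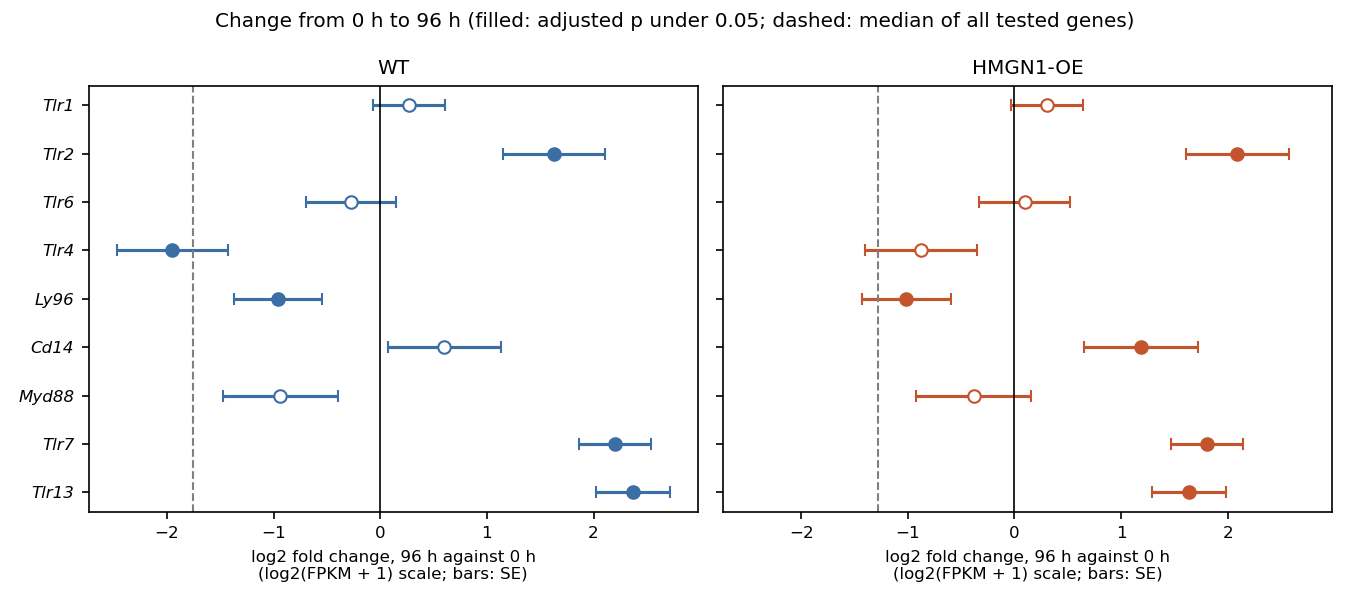
log2 fold change (log2(FPKM + 1) scale) of the 9 tested genes at 96 h against 0 h in WT and HMGN1-OE cells, with the standard error from limma. That error rests on the spread of all genes at a similar level. Filled points had an adjusted p under 0.05, and the dashed line is the median over all tested genes. Points for Tlr2, Tlr7 and Tlr13 lie above 1.6 in both genotypes, and Tlr4 in WT cells lies at -1.95, close to the overall median of -1.75.

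Among the surface receptors, Tlr2, which recognises bacterial lipopeptides, was the member that rose. In WT cells it stood at 3.09 and 10.5 FPKM at 0 h, 15.8 and 7.33 FPKM at 36 h, and 20.7 and 19.7 FPKM at 96 h. In HMGN1-OE cells the values were 4.62 and 3.11 FPKM, then 7.63 and 6.44 FPKM, and finally 20.2 and 18.7 FPKM. Both 96 h groups lay above every library of the earlier times, and the 2 genotypes overlapped at 96 h. The log2 fold change at 96 h against 0 h was 1.63 ± 0.48 (SE; adjusted p = 0.00119, limma) in WT cells and 2.09 ± 0.48 (adjusted p = 7.03e-05) in HMGN1-OE cells. The WT call rested on library 0 of the 0 h group, without which the change was 0.88 with an adjusted p of 0.10 by limma. It was also lost when only these 2 groups entered the fit (adjusted p = 0.11). Relative to the median gene of the library, Tlr2 passed from 1.57 below it to 1.90 above it in WT cells, as means of 2 libraries on the log2 scale. Between 36 and 96 h the change was 1.35 ± 0.48 (adjusted p = 0.00917) in HMGN1-OE cells and 0.84 ± 0.48 (adjusted p = 0.0859, not called) in WT cells. The HMGN1-OE call was lost in limma without either 36 h library or without library 0 at 96 h (adjusted p from 0.0563 to 0.0928), without the filter on low values (0.089), and without moderation of the variance (0.0707).

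Tlr1 and Tlr6, which encode the partners that give TLR2 its preference for triacylated or diacylated lipopeptides, did not pass the test at any time. Tlr1 was the lowest of the surface receptors described here, between 0.426 and 1.55 FPKM over the 12 libraries, with 7 libraries at 1 FPKM or more. Tlr6 lay between 1.92 and 7.68 FPKM. In WT cells Tlr6 measured 1.92 and 7.68 FPKM at 0 h, 7.33 and 3.32 FPKM at 36 h, and 3.00 and 3.32 FPKM at 96 h. The 2 libraries of an early time thus differed more than the times did. Relative to the library median both genes were higher at 96 h than at 0 h in both genotypes. On the log2 scale Tlr1 was higher by 2.12 in WT and 1.62 in HMGN1-OE cells, and Tlr6 by 1.57 and 1.41, all 4 past the threshold in limma on centred values (adjusted p from 0.000985 to 0.0205). Tlr1 was too low at 0 h to fall as far as the median gene on this scale. Its direction on centred values was thus fixed in advance, and nothing is read from it. The reference transcripts of the pair share 562 stretches of 36 bases, 16.9% of those of Tlr1 and 15.2% of those of Tlr6. Reads there could be assigned to either gene, and their separate levels are uncertain. No other pair among the 12 receptor genes compared shared such a stretch.

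The ratio of 2 genes within 1 library does not depend on the scaling of that library as a whole. Tlr2 stood at 1.03 to 1.61 times the FPKM of Tlr6 at 0 h and at 4.73 to 6.89 times at 96 h over the 4 libraries of each time. Tlr6 stood at 4.50 to 6.004 times the FPKM of Tlr1 at 0 h and at 2.53 to 3.88 times at 96 h. Neither pair of ranges overlapped. The loess scaling used by the authors depends on level, so such ratios are free of it only in part.

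The genes of the lipopolysaccharide complex did not share a course. Tlr4, the signalling receptor, measured 26.2 and 63.1 FPKM at 0 h, 64.2 and 64.3 FPKM at 36 h, and 13.3 and 7.18 FPKM at 96 h in WT cells. In HMGN1-OE cells it measured 24.3 and 18.1 FPKM, then 40.7 and 35.2 FPKM, and 10.001 and 12.004 FPKM. Every 96 h library was below every earlier one, and the 96 h groups of the 2 genotypes overlapped. The log2 fold change at 96 h against 0 h was -1.95 ± 0.52 in WT cells (adjusted p = 0.000381, limma) and -0.87 ± 0.52 in HMGN1-OE cells (adjusted p = 0.12), and relative to the library median these values became -0.10 and 0.44. On the deposited scale Tlr4 in WT cells thus fell about as far as the median gene, and its direction in HMGN1-OE cells turned with the scaling. Against 36 h the change was -2.59 ± 0.52 (adjusted p = 1.62e-06) in WT and -1.70 ± 0.52 (adjusted p = 0.00286) in HMGN1-OE cells. Both calls were lost on centred values (-0.27 and -0.36; adjusted p = 0.11 and 0.0501). With only the 2 groups in the fit, the WT call against 0 h was lost as well (limma adjusted p = 0.0675). The HMGN1-OE call against 36 h was also lost without library 0 of the 36 h group or library 0 of the 96 h group (limma adjusted p = 0.0548 and 0.0598). The difference between the genotypes in the change of Tlr4 from 0 to 96 h was 1.07 ± 0.74 and did not pass the test (adjusted p = 0.81, limma interaction term). Over the alternatives this difference ran from 0.45 to 1.69.

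Ly96, whose product is the lipid-binding partner of TLR4, measured 2.96 and 6.55 FPKM at 0 h, 6.25 and 5.99 FPKM at 36 h and 1.63 and 2.01 FPKM at 96 h in WT cells. In HMGN1-OE cells it measured 5.47 and 4.17 FPKM, then 3.74 and 4.45 FPKM, and 1.499 and 2.29 FPKM. The 96 h libraries were again the lowest in both genotypes. The log2 fold change at 96 h against 0 h was -0.96 ± 0.41 (adjusted p = 0.0261, limma) in WT and -1.01 ± 0.41 (adjusted p = 0.0241) in HMGN1-OE cells, which became 0.89 and 0.30 relative to the library median. Against 36 h it was -1.34 ± 0.41 (adjusted p = 0.00155, limma) in WT cells, which became 0.98 on the centred values, and -0.83 ± 0.41 (adjusted p = 0.0642, not called) in HMGN1-OE cells. The WT call against 0 h was lost in limma without library 1 at 0 h or library 0 at 96 h (adjusted p = 0.30 and 0.0837). The HMGN1-OE call was lost without library 0 at 0 h or either library at 96 h (limma adjusted p from 0.0507 to 0.21). Without the filter on low values both were lost (limma adjusted p = 0.091 in WT and 0.0924 in HMGN1-OE cells), and the WT call was also lost with only the 2 groups in the fit (0.17). Tlr4 exceeded Ly96 in FPKM in every library, by 3.58 to 10.9 times.

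Cd14, the co-receptor that concentrates lipopolysaccharide for TLR4, measured 15.2 and 49.4 FPKM at 0 h, 69.6 and 46.5 FPKM at 36 h and 40.2 and 44.7 FPKM at 96 h in WT cells. In HMGN1-OE cells it measured 17.8 and 8.36 FPKM, then 32.8 and 37.1 FPKM, and 31.7 and 26.9 FPKM. The 2 HMGN1-OE libraries at 0 h were below both later groups of that genotype, whereas the WT libraries at 0 h lay on either side of the 96 h pair. The log2 fold change at 96 h against 0 h was 1.19 ± 0.53 (adjusted p = 0.0393, limma) in HMGN1-OE cells and 0.60 ± 0.53 (adjusted p = 0.28) in WT cells. The HMGN1-OE call was lost in 7 of the 12 fits that left out 1 library, namely library 1 at 0 h, either HMGN1-OE library at 36 h or 96 h, or either WT library at 36 h (limma adjusted p from 0.0562 to 0.36), without the filter on low values (0.15), and without moderation of the variance (0.12). The WT value was -0.22 without library 0 at 0 h and 1.42 (adjusted p = 0.0301, limma) without library 1 at 0 h. Relative to the library median Cd14 rose by 2.45 in WT and 2.50 in HMGN1-OE cells (limma adjusted p = 0.0008 and 0.000887). Within a library, Cd14 stood at 0.463 to 0.783 times the FPKM of Tlr4 at 0 h and at 2.24 to 6.23 times at 96 h. The co-receptor transcript thus passed from below to above the receptor transcript in both genotypes.

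Among the endosomal receptors, Tlr7, a sensor of single-stranded RNA, and Tlr13, a rodent sensor of bacterial ribosomal RNA, appeared late. Tlr7 measured 0.197 and 0.436 FPKM at 0 h, 0.617 and 0.249 FPKM at 36 h and 5.28 and 4.79 FPKM at 96 h in WT cells. The HMGN1-OE libraries held 0.221 and 0.247 FPKM, then 0.250 and 0.266 FPKM, and 3.58 and 3.06 FPKM. All 8 libraries of 0 and 36 h were under 1 FPKM. Tlr13 measured 0.362 and 0.319 FPKM, then 0.603 and 0.444 FPKM, and 4.97 and 7.05 FPKM in WT cells. In HMGN1-OE cells the values were 0.465 and 0.394 FPKM, then 0.376 and 0.350 FPKM, and 3.30 and 3.60 FPKM. All 96 h libraries lay far above all earlier ones, and within 96 h the WT libraries lay above the HMGN1-OE libraries for both genes. The value that recurred most often in a library was 0.0967 to 0.105 FPKM, so the early levels were not far above that of genes without reads.

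The log2 fold change of Tlr7 at 96 h against 0 h was 2.20 ± 0.34 (adjusted p = 9.57e-10, limma) in WT and 1.81 ± 0.34 (adjusted p = 1.06e-06) in HMGN1-OE cells. Against 36 h it was 2.09 and 1.78 (limma adjusted p = 3.71e-09 and 1.91e-06). For Tlr13 the changes against 0 h were 2.37 ± 0.35 (adjusted p = 1.14e-10) and 1.64 ± 0.35 (limma adjusted p = 1.60e-05), and against 36 h they were 2.19 and 1.71 (limma adjusted p = 1.44e-09 and 7.86e-06). These 8 calls were kept in all 21 alternatives in which the 2 genes were tested, the fit without the filter included (limma adjusted p against 0 h from 0.000768 to 0.00265). Because of the pseudocount the fold changes of such low genes are understated, and no linear ratio is given because the levels at 0 h were near the lowest listed values. Tlr9, the sensor of CpG DNA, stayed between 0.132 and 0.447 FPKM in all 12 libraries and did not pass the filter. Its 2 highest values were those of HMGN1-OE cells at 96 h. In the fit without the filter it was called higher at 96 h in HMGN1-OE cells (log2 fold change 0.23, adjusted p = 0.043 against 0 h; 0.26, adjusted p = 0.0274 against 36 h, limma), at levels that stayed under 1 FPKM.

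Tlr7 and Tlr13 lie on the X chromosome, as does Tlr8, another endosomal RNA sensor that is not among the 10 genes. Tlr8 measured 0.175 and 0.259 FPKM at 0 h and 2.55 and 2.16 FPKM at 96 h in WT cells. The HMGN1-OE values were 0.154 and 0.153 FPKM at 0 h and 1.89 and 1.73 FPKM at 96 h. It was called higher at 96 h than at 0 h in WT (log2 fold change 1.46, adjusted p = 1.43e-05, limma) and HMGN1-OE cells (1.28, adjusted p = 0.000255), though it too passed the filter only through the 4 libraries at 96 h. All 4 Y-linked genes examined were under 1 FPKM in every library. None of the other 4 receptor genes (Tlr3, Tlr5, Tlr11 and Tlr12) passed the filter.

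**Figure D3:**
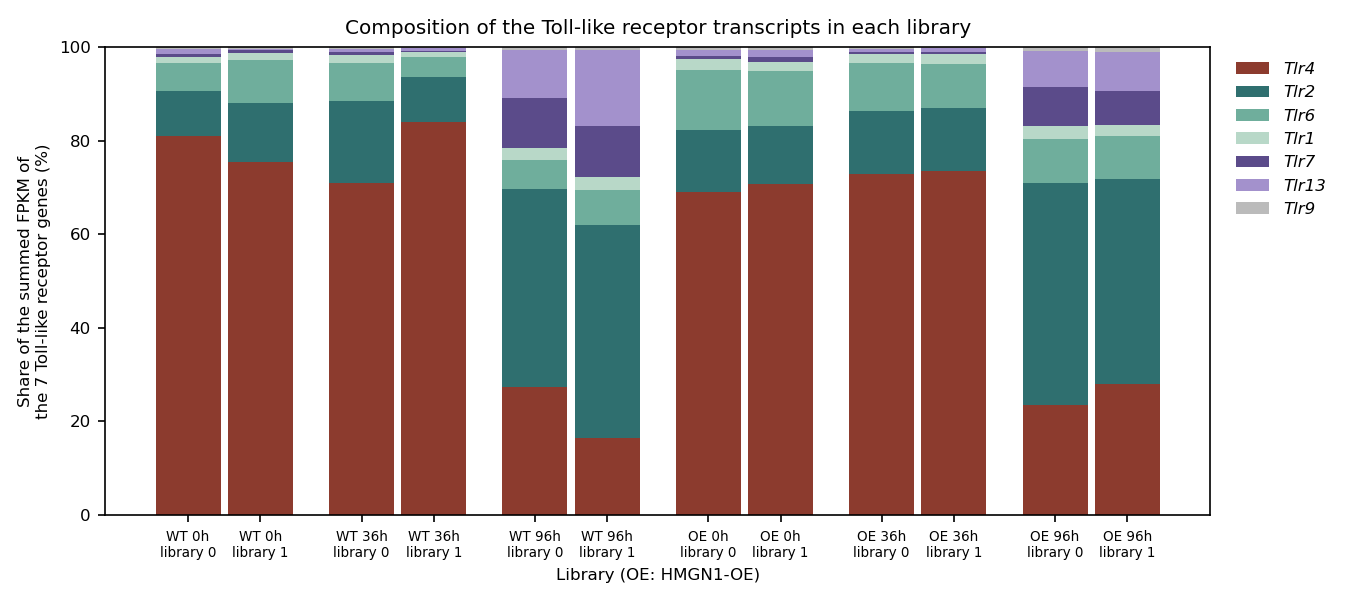
Share (%) of each Toll-like receptor gene in the summed FPKM of the 7 receptor genes, with 1 bar for each of the 12 libraries. Tlr4 made up 69.1 to 84.0% in the 8 libraries at 0 and 36 h and 16.5 to 28.0% in the 4 libraries at 96 h, when Tlr2 made up 42.5 to 47.5%.

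The composition of the receptor transcripts at 96 h lay outside the range of the earlier libraries for Tlr4, Tlr2, Tlr7 and Tlr13. The summed FPKM of the 7 receptor genes was 32.3 and 83.6 at 0 h, 76.5 to 90.4 at 36 h and 43.5 to 48.7 at 96 h in WT cells. The HMGN1-OE sum was 25.5 to 35.1, then 47.8 to 55.9, and 42.6 to 42.8. Tlr4 accounted for most of that sum at 0 and 36 h. Tlr2 held 9.57 to 17.5% of it at 0 and 36 h. The 3 endosomal receptors together held 1.12 to 3.21% at 0 and 36 h and 16.6 to 27.8% at 96 h, with 21.7 to 27.8% in the WT and 16.6 to 16.9% in the HMGN1-OE libraries. The ratio of Tlr2 to Tlr4 within a library passed from 0.114 to 0.246 at 0 and 36 h to 1.56 to 2.75 at 96 h.

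Myd88, the shared adaptor, was the most abundant of the 10 genes on average. It measured 29.0 and 63.7 FPKM at 0 h, 63.0 and 67.1 FPKM at 36 h and 32.5 and 14.8 FPKM at 96 h in WT cells. In HMGN1-OE cells it measured 48.6 and 30.4 FPKM, then 47.4 and 44.3 FPKM, and 27.9 and 30.8 FPKM. The WT libraries at 0 h spanned the whole HMGN1-OE range at that time. Its one call was a fall between 36 and 96 h in WT cells (log2 fold change -1.52 ± 0.54, adjusted p = 0.00589, limma), which became 0.80 relative to the library median. The call was lost without library 1 of the WT cells at 96 h (-0.98, limma adjusted p = 0.0866) and with only the 2 groups in the fit (limma adjusted p = 0.0601). Counted over the 9 genes, 2 were called higher (Tlr7, Tlr13) and 3 lower (Tlr4, Ly96, Myd88) in WT cells at 96 h against 36 h, where 3.15% of all tested genes were called higher and 86.3% lower. In HMGN1-OE cells 3 were called higher (Tlr2, Tlr7, Tlr13) and 1 lower (Tlr4) in that comparison, against 4.02% and 64.9% of all genes. The annotated Myd88 gene overlaps Slc22a14 on the same strand and Acaa1a on the opposite strand. The study does not say whether the libraries keep strand, so reads in those overlaps may not be told apart.

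**Figure D4:**
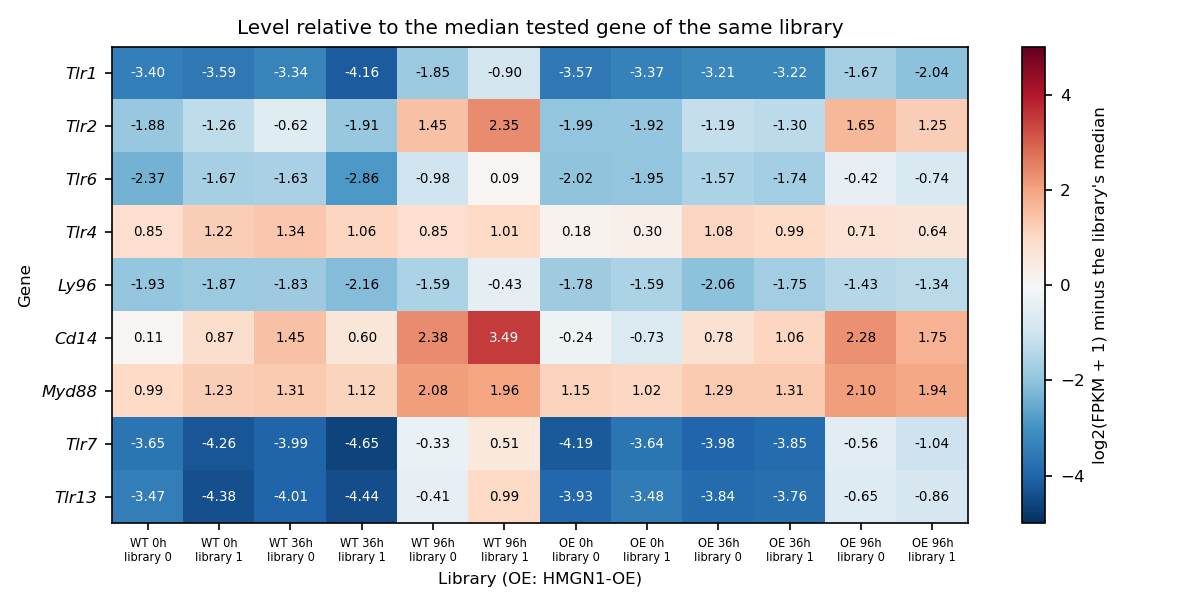
Level of the 9 tested genes in each library as log2(FPKM + 1) minus the median over the tested genes of that library (colour and printed value). Tlr4 lay between 0.18 and 1.34 above the median in all 12 libraries, and Tlr7 and Tlr13 passed from at least 3.47 below it at 0 and 36 h to between 1.04 below and 0.99 above it at 96 h.

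Centring on the library median moves all genes of a comparison by the same amount and leaves the distances between them as they were. On values centred on the library median, 8 of the 9 tested genes were called higher at 96 h than at 0 h in WT cells, all but Tlr4, where 36.5% of all tested genes were. In HMGN1-OE cells 8 were, all but Ly96, against 30.9% of all genes. Tlr1, Tlr7 and Tlr13 were too low at 0 h to fall as far as the median gene. Their centred rise was thus fixed in advance, and nothing is read from counts that include them. The 2 sets of counts describe different quantities, since the deposited values are scaled to cell number through the spike-ins and the centred values to the library's own median gene.

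Between 0 and 36 h none of the 9 genes was called in either genotype by limma, against 0.617% of all tested genes in WT and 1.8% in HMGN1-OE cells. At an unadjusted p under 0.05 the count was 0 in WT (3.28% of all genes) and 1 in HMGN1-OE cells (5.02%), that of Cd14 (log2 fold change 1.44 ± 0.53, adjusted p = 0.26), which was called only when these 2 groups alone entered the fit (adjusted p = 0.00794). A linear model without moderation called none in either genotype. The ratio of mean FPKM at 36 h to 0 h lay between 0.845 and 2.67 for the 10 genes in the 2 genotypes.

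HMGN1-OE cells were compared with WT cells at each time, to ask whether HMGN1 excess alters gene expression before and during maturation. None of the 9 tested genes was called at 0 h (1.36% of all tested genes were), at 36 h (1.26%) or at 96 h (0.669%) by limma. None was called for a genotype difference in its change from 0 to 36 h (0.504% of all genes were) or from 0 to 96 h (0.677%) by the limma interaction terms. At an unadjusted p under 0.05 the counts were 1, 0 and 0 for the 3 times, where 3.97%, 5.15% and 2.73% of all tested genes were, and 0 for both interactions (1.91% and 2.9%). The linear model without moderation called none. Permuting 2 against 2 libraries gives an exact p of 0.333 at best, so no such test is given. The median difference of the 9 genes was -0.11 at 0 h, -0.49 at 36 h and -0.05 at 96 h, beside -0.12, -0.54 and 0.36 over all tested genes.

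At 0 h the lowest unadjusted p was that of Cd14. The HMGN1-OE libraries held 17.8 and 8.36 FPKM of it and the WT libraries 15.2 and 49.4 FPKM, which overlapped (log2 fold change -1.11 ± 0.53, adjusted p = 1, limma). Its change ran from -1.93 to -0.29 over the alternatives. Tlr4 was the one gene that lay lower in both HMGN1-OE libraries without overlap at 0 h, a state shared by 4.67% of all tested genes (-0.93 ± 0.52, adjusted p = 1, limma), and Tlr13 the one that lay higher, as did 3.26% of all genes. Over the 22 alternatives the change of Tlr4 ran from -1.55 to -0.31. Among the markers at 0 h, Mpo and Elane of progenitors and Ly6c2 of monocytes were called lower in HMGN1-OE cells, and Prss34 of basophils and Hba-a1 of erythroid cells higher. Ly6c2 stood at 92.3 and 846 FPKM in the WT and at 10.9 and 8.43 FPKM in the HMGN1-OE libraries. The part of these cells in the values of Tlr4 and Tlr13 was not tested. At 36 h Tlr4, Tlr13, Cd14, Ly96 and Myd88 lay lower without overlap in HMGN1-OE cells, as did 84.4% of all tested genes.

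At 96 h Tlr1, Tlr7, Tlr13 and Cd14 lay lower in both HMGN1-OE libraries than in both WT libraries, as did 2.97% of all tested genes, and Tlr6 lay higher, as did 10.2%. The log2 fold changes were -0.48 ± 0.34 for Tlr7, -0.64 ± 0.35 for Tlr13 and -0.52 ± 0.53 for Cd14, each with an adjusted p of 0.86 in limma. In the 21 or 22 alternatives that gave a value, these changes stayed below 0 and the adjusted p above 0.11. Among the 11516 genes ordered from the lowest difference at 96 h, Tlr13 ranked 143, Cd14 ranked 192 and Tlr7 ranked 215. Markers of other cells moved with genotype at this time. The summed FPKM of 4 eosinophil markers was 986 to 2132 in WT and 205 to 504 in HMGN1-OE libraries, with 2 of 3 tested called lower in HMGN1-OE cells and Ccr3 under 1 FPKM throughout. That of 7 progenitor markers was 185 to 956 in WT and 1088 to 2930 in HMGN1-OE libraries, with 3 called higher. Of 11 neutrophil markers, S100a9 was called higher and Mmp9 and Retnlg lower in HMGN1-OE cells. For S100a9, the WT libraries were listed at 0.0511 and 26546 FPKM, so that call rests on library 0. The part of these cells in the lower values was not tested.

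The cells carried markers of the labelled lineage. From 0 to 96 h all 7 progenitor markers fell in WT cells, and 4 fell and 1 rose in HMGN1-OE cells, where 77.2% and 62.4% of all tested genes were called lower. Over the same time 9 of 11 measured neutrophil maturation markers rose in WT and 10 of 11 in HMGN1-OE cells, while Mmp8 fell in both and S100a9 was called lower in WT cells. Mmp9 was under 1 FPKM in every library at 0 and 36 h, so it passed the filter only through 96 h. The summed FPKM of the 11 went from between 1181 and 2956 to between 67147 and 96528 in WT cells, and from between 1176 and 1879 to between 121123 and 173011 in HMGN1-OE cells. Of the monocyte and macrophage markers, Cx3cr1, Ms4a7 and C1qa were under 1 FPKM in all libraries, and of 6 tested 1 rose and 2 fell in WT cells, and 2 rose and 1 fell in HMGN1-OE cells. Their summed FPKM was 159 to 985 in WT and 66.3 to 164 in HMGN1-OE cells at 0 h, and 377 to 719 and 751 to 1333 at 96 h. All 6 mast cell and basophil markers were detected, with a summed FPKM of 436 to 2739 over the 8 libraries at 0 and 36 h and 122 to 523 at 96 h, and between 0 and 96 h 1 rose and 2 fell in WT cells, and 1 rose and 3 fell in HMGN1-OE cells. Of the dendritic, B and T cell markers, 4 of 6, 3 of 5 and 4 of 5 were under 1 FPKM in all libraries. Of those tested, dendritic Flt3 (47.5 and 67.3 FPKM in WT cells at 0 h) was called lower at 96 h than at 0 h in both genotypes (-5.65 and -6.05). The B cell markers Cd79a and Cd79b were also called lower in both. The T cell marker Cd3d was called higher in both (2.41 and 1.92), though it passed the filter only through 96 h. Csf1r, the receptor that marks monocytes, was called higher in both genotypes (2.65 and 2.74 on the log2 scale), and Emr1, which marks macrophages and eosinophils, was called lower in both (-1.61 and -2.28). The summed FPKM of the 4 eosinophil markers went from between 6.59 and 14.6 to the 96 h values above in WT cells, and from between 18.2 and 27.0 in HMGN1-OE cells, with 2 of 3 tested called higher in WT and 3 in HMGN1-OE cells. The part of any of these lineages in the rise of Tlr2, Tlr7 and Tlr13 was not tested. One neutrophil marker, S100a9, was listed at 0.0511 FPKM in library 0 and 26546 FPKM in library 1 of the WT cells at 96 h, a gap that sets this pair of libraries apart for that gene. Without S100a9, chosen after its values were seen, the neutrophil sum at 96 h was 40601 to 96528 in WT and 69248 to 99550 in HMGN1-OE libraries, which overlapped. The calls of Tlr2, Tlr4, Tlr7 and Tlr13 for WT cells at 96 h against 0 h held without either library.

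The rest of the pathway was examined by lists of genes chosen for their function, to be read against the 4.31% of all tested genes called higher and 77.2% called lower at 96 h against 0 h in WT cells, and 5.08% and 62.4% in HMGN1-OE cells. Of 12 tested adaptors, co-receptors and chaperones, none rose and 8 fell in WT and 7 in HMGN1-OE cells between 0 and 96 h, which is no larger a share than among all genes. The largest falls in WT cells, on the log2 scale, were those of Hsp90b1, the chaperone that folds Toll-like receptors (-3.03), Cnpy3, its co-chaperone (-2.19), Ly86 (-1.98) and Ticam2, the adaptor that carries TLR4 signals to TRIF (-1.90). Of 18 kinases and ubiquitin ligases, 14 fell and 1 rose in WT cells, and 7 fell and 2 rose in HMGN1-OE cells. The share that fell was near that of all genes in WT and below it in HMGN1-OE cells. Irak2, a kinase of the MyD88 complex, was the one that rose in both (1.10 and 1.35; limma adjusted p = 0.0144 and 0.00413). The median changes of these 2 lists were -1.46 and -1.48 in WT cells, beside -1.75 over all tested genes.

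Of 12 transcription factors of the pathway, 4 rose and 3 fell in each genotype. Fos, part of AP-1, had log2 fold changes of 1.94 in WT and 2.65 in HMGN1-OE cells, both called. Irf7, Jun and Relb were the others that rose in both, while Creb1, Nfkb1 and Irf3 fell in both. Of 15 inhibitors, 3 rose in each genotype and 8 fell in WT and 6 in HMGN1-OE cells, again a smaller share lower than among all genes. Nfkbia, which encodes the protein that holds NF-kappaB in the cytoplasm, rose by 2.01 and 2.18, and Tnfaip3, a deubiquitinase that ends the signal, rose by 1.59 and 1.60. Sigirr, a receptor that dampens Toll-like receptor signals, fell by 4.02 and 3.40.

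Receptors of the interleukin-1 family share the Toll and interleukin-1 receptor domain and MyD88 with the Toll-like receptors. Of 7 tested, 4 rose and 1 fell in WT, and 2 rose and 1 fell in HMGN1-OE cells between 0 and 96 h. Il18r1 was under 1 FPKM in every library at 0 and 36 h, so it passed the filter only through libraries at 96 h. The counts that rose are therefore not read against the share of all genes. Il1r2, a decoy receptor of neutrophils, rose by 3.92 and 3.84. Il1r1, the signalling receptor, fell in both and was the one gene of these pathway lists that limma called between genotypes (0 h, log2 fold change 2.45, adjusted p = 7.29e-07). At 0 h the HMGN1-OE libraries held 18.5 and 31.7 FPKM of it and the WT libraries 11.5 and 0.709 FPKM, 2 values that lie 16.2-fold apart.

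**Figure D5:**
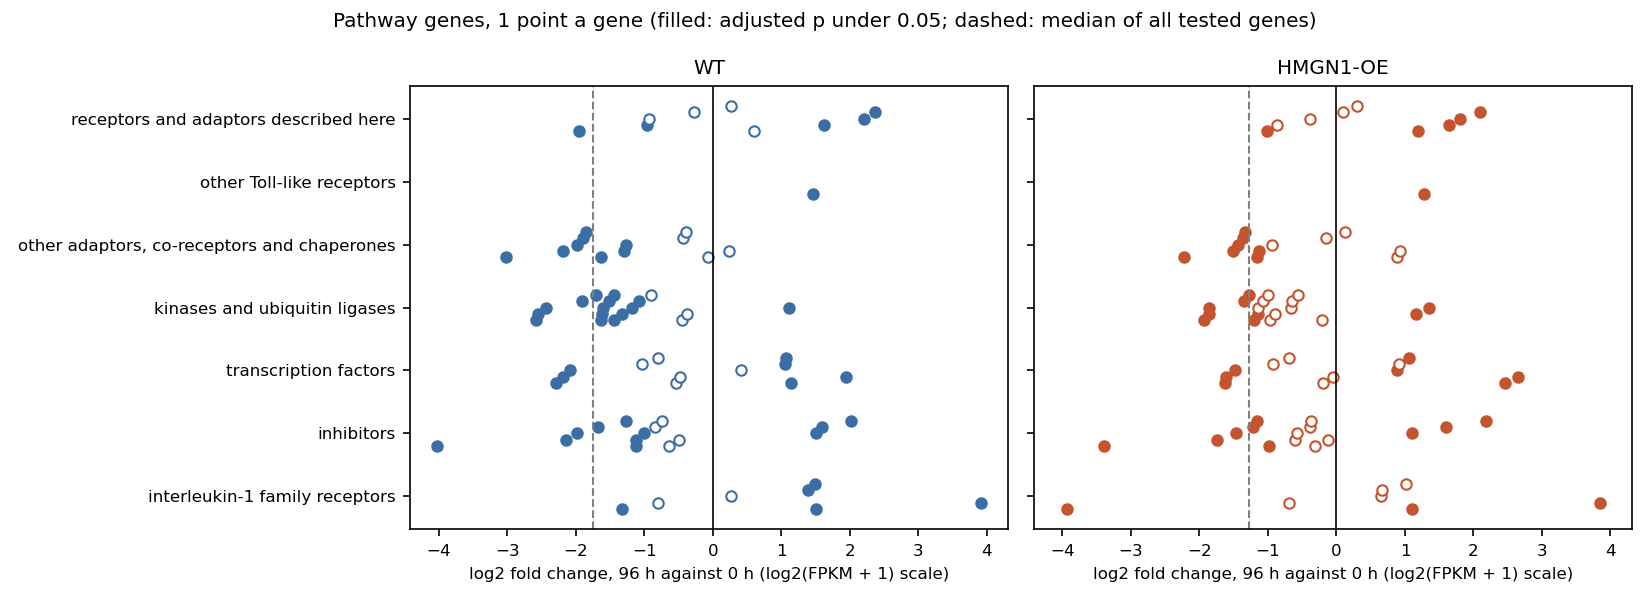
log2 fold change (log2(FPKM + 1) scale) at 96 h against 0 h of the 9 tested receptors and adaptors and of 6 lists of other pathway genes, in WT and HMGN1-OE cells. Each point is 1 gene, filled where the adjusted p was under 0.05, and the dashed line is the median over all tested genes. Adaptors and kinases cluster near the dashed line, with medians of -1.46 and -1.48 in WT cells, and Tlr8 is the 1 tested gene of the list of other receptors.

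The genes whose pattern was most like that of each member were sought among 8902 genes with a mean of at least 5 FPKM, by Pearson's r over the 12 libraries after the median of each library had been subtracted. This is a description, since the points share libraries and the change at 96 h. Tlr7 was most like Bst1 (r = 0.997) and Niacr1 (r = 0.997), and Tlr13 like Asprv1 (r = 0.995) and Bst1 (r = 0.995). Tlr2 was most like Mroh1 (r = 0.995) and Irak2 (r = 0.995). Cd14 was most like Nhsl2 (r = 0.977), Tlr1 like Cyp4f13 (r = 0.987) and Tlr6 like Ccdc130 (r = 0.983). Myd88 was most like Chp1 (r = 0.995) and Ly96 like Irf5 (r = 0.946), which encodes a transcription factor downstream of MyD88. Tlr4 was most like Ndrg3 (r = 0.967) and Kit (r = 0.942), the stem cell factor receptor of progenitors. Its r with the other members ran from -0.13 for Ly96 to 0.41 for Cd14. Among the members, the closest pair was Tlr7 and Tlr13 (r = 0.996).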

How the data were processed

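RNA of ER-HoxB8 progenitors (1 table, 12 libraries, 6 groups of 2) was analysed from the values the authors deposited. Per the study's methods, RNA from equal cell numbers received ERCC spike-ins, libraries were aligned, and expression was normalised by loess on the spike-ins. Those methods do not say whether the libraries keep strand. The submitters' processing notes name HISAT, Cufflinks 2.0.0 and mouse build mm9, while the methods name another aligner. The deposited unit is FPKM per gene symbol; no raw counts were used here, so depth is unknown and no counting interval is given. Library columns carry the digits 0 and 1, which are not the replicate numbers of the labels, and serve here only as names.

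FPKM values deposited by the authors were changed to log2(FPKM + 1). Genes that reached 1 FPKM in 2 or more libraries (11516 of 23309, with 92 spike-ins left out) entered limma 3.58.1 in R 4.3.3 (6 group means, empirical Bayes with trend), with Benjamini-Hochberg adjustment over all tested genes. The estimated prior degrees of freedom were infinite, so each p rests on the spread of all genes at that level rather than on that gene's own. The settings varied were the pseudocount (0.1, 0.01), the filter (none, or a mean of at least 5 FPKM), median centring, quantile normalization, other variance estimates, fits of only the groups compared, and leaving out each library. The fit was tested on simulated data with independent noise for each gene and library, which lack the shifts of whole libraries seen here. Transcript overlap and gene overlaps came from GENCODE vM21 and promoters from RefSeq, so no coordinates of build mm9 are given. Gene symbols were matched as listed, 3 by older symbols.

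All 10 members were named; of other lists, at most the 4 called genes with the largest change in a comparison; and for likeness the closest of the 3 best genes. The members and lists were chosen with earlier results of these data known. One gene of the marker lists is not reported here.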

Additional observations from a re-analysis of the deposited data

Results flagged for a closer look

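Among the members, no interaction of genotype and time passed the test. Of the other pathway genes, Il1r1 alone differed in its change from 0 to 96 h between HMGN1-OE and WT cells by the limma interaction term (-2.60 on the log2 scale, adjusted p = 0.002). Its 2 WT libraries stood at 11.5 and 0.709 FPKM at 0 h and at 0.259 and 17.2 FPKM at 36 h, and the p of this fit does not use the gene's own spread.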

How the results depend on the processing

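The count of members called was 0 in every alternative for HMGN1-OE against WT at the 3 times, both interactions and WT 36 h against 0 h. With only the groups compared it was 1 for HMGN1-OE 36 h against 0 h and 2 for WT 96 h against 0 h. With a mean of at least 5 FPKM, which leaves 4 members, it was 2 in each of the 4 comparisons with 96 h. With median centring it was 8 for WT 96 h against 0 h, WT 96 h against 36 h and HMGN1-OE 96 h against 0 h, and with quantile normalization 8 for the last. Under median centring 36.5% of all tested genes were called higher at 96 h than at 0 h in WT and 30.9% in HMGN1-OE cells. The centred counts include Tlr1, Tlr7 and Tlr13, whose centred direction was fixed by their low level before 96 h. Leaving out 1 library gave 5 to 6 for WT 96 h against 0 h (2 higher and 4 lower without library 0 at 0 h, 4 higher and 1 lower without library 1, against 3 and 2), 4 to 6 for WT 96 h against 36 h, 3 to 5 for HMGN1-OE 96 h against 0 h (3 without library 0 or 1 at 96 h) and 2 to 5 for HMGN1-OE 96 h against 36 h (2 without library 0 at 36 or 96 h).

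Directions turned under median centring and quantile normalization, which remove the fall of the median gene. The log2 fold change of Ly96 became 0.89 and 0.62 for WT 96 h against 0 h, 0.98 and 0.64 for WT 96 h against 36 h, and 0.30 and 0.075 for HMGN1-OE 96 h against 0 h. That of Myd88 for WT 96 h against 36 h became 0.80 and 1.008. That of Tlr4 became 0.44 and 0.50 for HMGN1-OE 96 h against 0 h and, with quantile normalization, 0.0017 for WT 96 h against 0 h. That of Cd14 for WT 96 h against 0 h was -0.22 without library 0 and 1.42 without library 1 of WT at 0 h; the cause was not tested. No paired analysis was possible because the columns carry no replicate number of the labels. Depth could not be assessed from FPKM.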
